A study of Mus musculus with 2931 samples.

Results

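Proliferative endothelial cells (EC) of the mouse lung were compared between the last day of gestation sampled, E18.5 (embryonic day), and P7 (postnatal day). The cells were those that the authors labelled Proliferative EC, and the cell names gave their age, air and mouse. This gave 295 cells of 390 with that label and of 2931 in the whole series, 206 at E18.5 and 89 at P7. At E18.5 the female mouse FE18.5 gave 122 cells and the male mouse ME18.5 gave 84, and at P7 the female mouse FP7 gave 55 and the male mouse MP7 gave 34. Both groups were kept in normal air, no other allele or agent is named for them, the strain is not given in the sources used here, and the tissue was distal lung. Proliferative EC of a female and a male P7 mouse kept in hyperoxia, 36 and 30 cells, also entered the fits but were not compared. The labels leave unsaid if each mouse name is a single animal or a pool, so n = 2 counts mouse names, with 1 female and 1 male in each group, and p-values measure the spread between such names. Cells had been sorted by flow cytometry and each was sequenced in its own well.

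Around birth the lung's blood vessels pass from a fluid-filled organ with little blood flow to one that is ventilated, perfused and better supplied with oxygen. In the weeks that follow, the capillaries grow with the dividing air spaces, and cycling EC supply new cells. Such EC can be told by transcripts of the mitotic machinery (Mki67, Top2a, Cdk1), which they make in addition to the transcripts of their own vessel type. A comparison of cycling EC alone therefore asks how the program of a dividing EC differed between these ages, apart from how many cells divided.

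Most markers of cycling cells and of EC were read in most of the labelled cells at both ages. After each cell was thinned to 50000 reads, Mki67, the antigen used to mark cycling cells, had a read in 98.4% and 91.7% of cells of the female and male E18.5 mice and in 83.6% and 94.1% of cells of the female and male P7 mice. The EC adhesion gene Pecam1, which encodes CD31, had a read in 92.7% to 98.4% of cells per mouse, and the junction gene Cldn5 in 86.9% to 100% of them. The cycling marker Ccnb1 was read in fewer thinned cells, 49.1% to 69.0% per mouse, as was the EC marker Erg, 41.8% to 73.5%. Prox1, the transcription factor of the lymphatic lineage, stood at 0 to 0.244 CPM (the reads of a gene per 1000000 reads summed over the cells of a mouse). Lyve1, a hyaluronan receptor that marks lymphatic EC and is also made by other EC, was at 1103 and 1085 CPM at E18.5 and at 1117 and 801 CPM at P7, with a read in 83.6% to 91.7% of thinned cells. Per mouse 98545597 and 67586124 reads were summed at E18.5 and 60712409 and 8951551 at P7, and the median cell of MP7 had 183457 reads against 682744 to 1046715 in the other 3 mice. At a depth of 50000 reads the median cell of MP7 showed 3660.5 genes against 2895.5 to 3041.5 in the others.

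Cells of other types could sit among these profiles, and their markers moved with age in part. Of 12 mesenchymal markers 10 could be tested, 9 were higher at P7 in the fit and 0 were called, and their summed level was 6.25 and 6.30 CPM at E18.5 and 13.8 and 423 CPM in FP7 and MP7. Of the red cell and platelet markers 9 could be tested, 6 were lower and 3 higher at P7, and the sum was 72.9 and 350.0 CPM at E18.5 and 0.0165 and 35.6 CPM at P7. Of all genes tested, 47.9% were higher and 52.0% lower in the fit. The sums of 12 epithelial markers were 36.2 to 79.7 CPM, with Epcam at 0.0148 to 0.112 CPM, and those of 12 immune markers were 2.90 to 12.7 CPM, with Coro1a at 0 to 0.0101 CPM. Reads of at least 3 markers of any one of these lists were found in 6 and 5 cells of the E18.5 mice and in 3 and 4 cells of FP7 and MP7. Without these 18 cells 36 genes were called in the comparison below in place of 50, and 32 of the calls were shared.

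The share of proliferative EC was lower at P7 than at E18.5 in every mouse. Among cells of the CD31 gate they were 120 of 296 (40.5%, 95% Clopper-Pearson interval 34.9 to 46.4) in FE18.5 and 83 of 292 (28.4%, 23.3 to 34.0) in ME18.5. At P7 they were 50 of 320 (15.6%, 11.8 to 20.1) in FP7 and 33 of 200 (16.5%, 11.6 to 22.4) in MP7. The groups did not overlap, with a mean of 34.5% ± 8.57 (SD, n = 2) against 16.1% ± 0.619 (SD, n = 2). The exact two-sided permutation test gave p = 0.333, the smallest that 2 mice against 2 allow. The intervals cover counting error only, and a share of sorted cells depends on the gate as well as on the tissue.

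Within the cycling cells, genes of mitosis were not called, nor were genes of DNA replication. Of all 13176 genes tested 0.379% were called, so no call is the usual outcome for lists of this size. Of the 25 mitosis genes 17 were lower and 8 higher in the fit. Both P7 mice were below both E18.5 mice for 9 of them and above for 3. Over all genes these shares were 52.0%, 47.9%, 21.3% and 19.2%. The 25 mitosis genes of the list summed to 14657 and 14258 CPM in the E18.5 mice and to 12014 and 10406 CPM in FP7 and MP7, which did not overlap (exact two-sided permutation p = 0.333, the smallest possible). Mki67 stood at 2226 and 784 CPM in FE18.5 and ME18.5 and at 668 and 496 CPM in FP7 and MP7, so both P7 mice were below both E18.5 mice, but the E18.5 mice also lay far apart (edgeR adjusted p 0.376). Top2a, the topoisomerase that untangles chromosomes, was at 2431 and 1889.8 CPM against 906 and 1444 CPM (edgeR adjusted p 0.549). Cdk1, the mitotic kinase, was at 839 and 1313 CPM against 1014 and 1063 CPM, and the mice overlapped. Ube2c, a ubiquitin conjugating enzyme of mitotic exit, was at 1000.2 and 1312 CPM against 1076 and 1098 CPM, again with overlap.

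The 29 DNA replication genes summed to 4183 and 4542 CPM at E18.5 and to 5952 and 4249 CPM in FP7 and MP7 (exact two-sided permutation p = 0.667). The P7 mean was 738 CPM above that of E18.5, and without FP7 the difference was -113 CPM. Rrm2, a subunit of ribonucleotide reductase, was at 349.5 and 369 CPM in the E18.5 mice and at 1039.8 and 580.3 CPM in the P7 mice, without overlap (edgeR adjusted p 0.400). Thymidine kinase Tk1 (307 and 516 against 465 and 506 CPM) overlapped between the groups. The ratio of the mitosis sum to the replication sum was 3.50 and 3.14 at E18.5 and 2.02 and 2.45 at P7, with no overlap (exact two-sided permutation p = 0.333, the smallest possible). Both lists include genes that define a cycling cell, so the authors' label limits how far they could differ.

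Clustered histone genes, whose transcripts are made in S phase and for the most part carry no poly(A) tail, leaned to lower levels at P7 with no gene called. Of the 23 genes tested 22 were lower in the fit, 17 had both P7 mice below both E18.5 mice and 7 were lower at an unadjusted p under 0.05, against 52.0%, 21.3% and 4.86% of all 13176 genes tested. The median log2 change of the list was -1.17, against -0.05 over all genes. Of all genes tested 0.379% were called. Hist1h2ae was at 579 and 821 CPM in FE18.5 and ME18.5 and at 73.5 and 259 CPM in FP7 and MP7, which is -2.13 ± 0.54 on the log2 scale (SE; adjusted p 0.162 in edgeR). The linker histone Hist1h1e was at 1622 CPM in FE18.5 alone and at 254, 79.2 and 391 CPM in ME18.5, FP7 and MP7. Summed over the list, the level was 5742 and 3392 CPM at E18.5 and 933 and 2416 CPM at P7. Within the male cells of the shared sequencing run Hist1h1e was 0.77 log2 units higher at P7 and Hist1h2ae 1.81 lower (log2 change -1.81), so members of the list went in both directions there. Histone genes have near-identical copies, among which reads may have been divided.

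**Figure D1:**
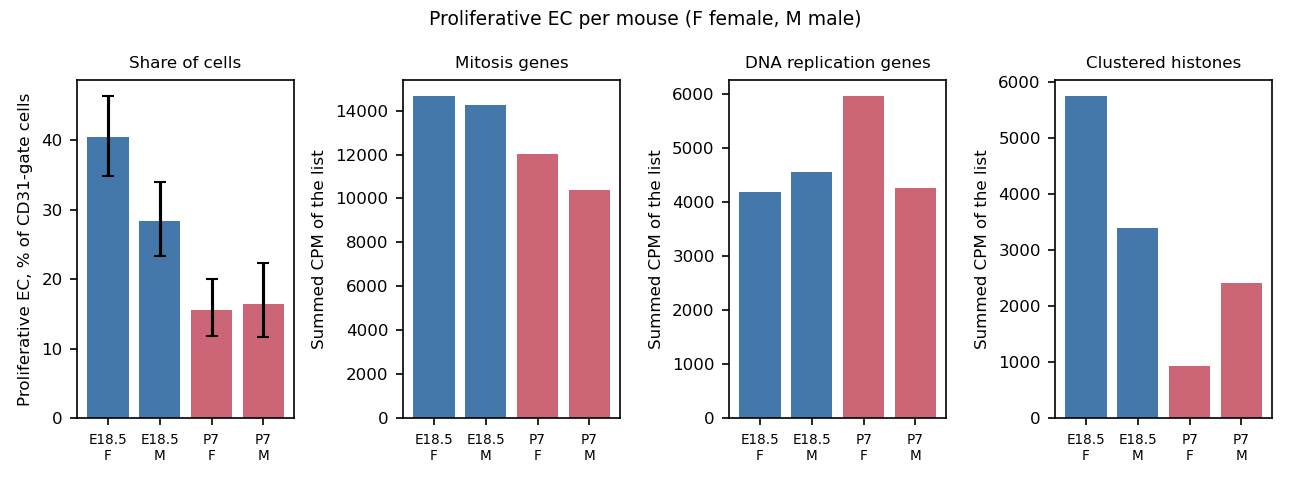
Proliferative EC per mouse, E18.5 in blue and P7 in red. The first panel plots their share of CD31-gate cells in percent, with bars of the 95% Clopper-Pearson interval. The other panels plot the summed CPM of the mitosis, DNA replication and clustered histone lists. The share, the mitosis sum and the histone sum were lower in both P7 mice than in both E18.5 mice, whereas the replication sum overlapped.

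Across all genes, 50 of 13176 tested were called between P7 and E18.5 (0.379%; edgeR's quasi-likelihood test, Benjamini-Hochberg adjusted p under 0.05), 39 higher at P7 (0.296%) and 11 lower (0.0835%). At an unadjusted p under 0.05 there were 635 genes higher (4.82%) and 641 lower (4.86%), and both P7 mice were above both E18.5 mice for 2526 genes (19.2%) and below them for 2806 (21.3%). The mice did not overlap for any of the 50 called genes, and the other settings below reuse the same cells. The direction of these genes was therefore nearly fixed in advance in those settings. The fit took its spread from 6 mice, the 4 compared and the 2 P7 mice kept in hyperoxia, with 3 residual degrees of freedom. DESeq2 called 429 genes and the 50 were among them. All 50 kept their direction in each of the 15 other settings tried, and Hpgd, Tmem100, H2-K1, Sgk1 and Ecm1 were called in all 15. With the P1 mice added to the fit, which gave 13 and 9 proliferative EC, 6 genes were called and 44 of the 50 lost their call. Of the 50 calls, 20 were kept without FE18.5, 27 without ME18.5, 44 without FP7 and 42 without MP7. Of the genes described below, Car4, Col18a1, Lamb1, Hif3a, Pmp22, Epas1, Nrp2, Nkd1, Stab2, Tspan7, Rcan1, Ccdc184 and AW112010 were not called when FE18.5 was left out, nor when ME18.5 was, and Tmcc3, Grb10, Fn1, Ddah1, Prrg3, Egln3 and Clca3a1 not without FE18.5. Col18a1, Lamb1, Grb10, Tspan7 and Rcan1 were not called without FP7, Car4, Pmp22, Grb10 and Prrg3 not without MP7, and Hbb-bs not without ME18.5. Car4, Col18a1, Grb10, Prrg3, Bmp6, Hbb-bs, Rcan1, Ccdc184 and AW112010 were not called without the 18 cells that held markers of other types.

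The 2 male mice shared a sequencing run and the 2 female mice did not, so in females age and run cannot be told apart. Between the 83 E18.5 and 33 P7 cells of the shared run, all 50 genes had the direction of the full comparison, with a median absolute log2 difference of 4.10 (on log2 of CPM + 1) against 4.05 for the fitted changes. Outside this run each male mouse gave 1 cell, and the mice did not overlap for any called gene. The direction was therefore nearly fixed in advance, and the comparison is no separate check of the calls.

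**Figure D2:**
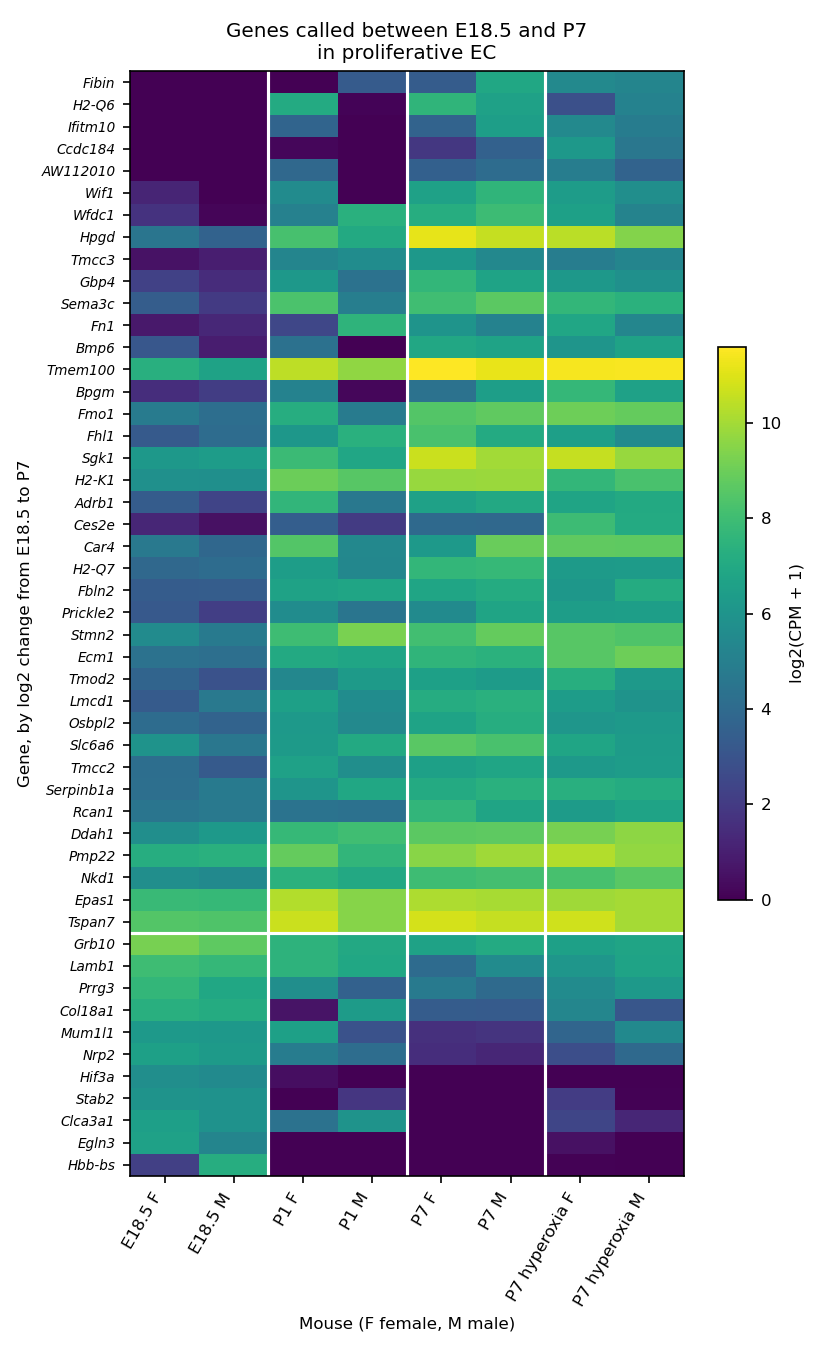
Level of the 50 called genes in proliferative EC of 8 mice, as log2(CPM + 1) on the colour scale, ordered from the largest rise to the largest fall at P7. The horizontal line parts the 39 genes higher at P7 from the 11 lower. The P1 mice, with 13 and 9 cells, and the hyperoxia mice are shown for their levels only.

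Genes that mark lung capillary EC were among those that rose. General capillary cells of the lung are the progenitor-like EC that line most of the alveolar network, and Car4+ capillary cells, also named aerocytes, are the large EC specialised for gas exchange. Of 11 general capillary genes 2 rose (Tmem100 and Sema3c), 0 fell and 10 were higher in the fit, against 47.9% of all genes tested, with a median log2 change of 1.03. Of 12 Car4+ capillary genes tested 3 rose (Car4, Fibin and Pmp22), 0 fell and 10 were higher in the fit, with a median of 1.66. Among all genes tested 0.296% were called higher.

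Tmem100, a membrane protein of EC downstream of the BMP receptor Acvrl1 (chromosome 11, 90030348 to 90036508), was at 158 and 101 CPM in FE18.5 and ME18.5 and at 3074 and 2333 CPM in FP7 and MP7. Its read was found in 36.9% and 23.8% of the cycling cells of the E18.5 mice and in 100% of those of both P7 mice. The 2 P1 mice lay between, at 1383 and 817 CPM. The log2 change was 4.36 ± 0.47 (SE; adjusted p 0.00155 in edgeR). Sema3c, a secreted guidance protein of the semaphorin family (chromosome 5, 17574281 to 17730268), was at 9.80 and 2.87 CPM at E18.5 and at 262 and 406 CPM at P7, which is 5.70 ± 0.63 on the log2 scale (SE; adjusted p 0.00156 in edgeR). Other general capillary genes were already high before birth: Cd93 was at 1675 and 1724 CPM against 1252 and 2349 CPM, and Gpihbp1, which carries lipoprotein lipase to the vessel lumen, at 909.7 and 1709 CPM against 951 and 1172 CPM, and both overlapped. Kit, the receptor of stem cell factor, was at 167 and 199 CPM against 653 and 326 CPM, with both P7 mice higher but no call (edgeR adjusted p 0.340).

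Car4, the carbonic anhydrase that names the Car4+ cells (chromosome 11, 84957786 to 84966044), was at 24.4 and 13.6 CPM at E18.5 and at 74.2 and 488 CPM in FP7 and MP7. Both P7 mice were above both E18.5 mice, but they differed from each other more than FP7 differed from E18.5. Reads of Car4 were found in 13.1% and 8.33% of cells at E18.5 and in 20% and 38.2% of cells in FP7 and MP7. The log2 change was 3.84 ± 0.72 (SE; adjusted p 0.0448 in edgeR), a call that depended on MP7 among others. Fibin, a secreted protein gene, had 0 reads in both E18.5 mice and 9.45 and 118 CPM in FP7 and MP7, at least 1297-fold higher if 3 reads in the E18.5 mice together are taken as the floor. This bound treats reads as separate counts and leaves out the spread between cells or mice. Fibin was read in 5.45% and 14.7% of the P7 cells, and 40.4% of its P7 reads came from 1 cell. Pmp22, a membrane protein also known from myelin, was at 149.6 and 164 CPM against 732 and 993 CPM (log2 change 2.42 ± 0.41 SE; edgeR adjusted p 0.0267). Ednrb, the endothelin B receptor and another gene of the Car4+ list, was at 374 and 402 CPM against 58.2 and 224 CPM, the opposite direction, with no call (edgeR adjusted p 0.417).

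Other genes that rose have roles in lipid mediators, salt handling and oxygen sensing. Hpgd, which breaks down prostaglandins (chromosome 8, 56294585 to 56321043), was at 21.5 and 11.4 CPM in the E18.5 mice and at 2311 and 1516 CPM in the P7 mice. It was read in 20.5% and 21.4% of cells before birth and in 96.4% and 100% of cells at P7. Its log2 change of 6.84 ± 0.60 (SE) had the smallest adjusted p of all genes (edgeR adjusted p 0.000645), and the P1 mice were at 300.4 and 131 CPM. Sgk1, a kinase induced by glucocorticoids that acts on sodium transport (chromosome 10, 21882184 to 21999903), was at 71.3 and 82.6 CPM against 1595 and 1015 CPM, which is 4.06 ± 0.49 on the log2 scale (SE; adjusted p 0.00241 in edgeR). At P1 it was at 239.7 and 114 CPM, closer to the E18.5 mice. Epas1, the oxygen-labile transcription factor HIF-2 alpha (chromosome 17, 86753700 to 86833410), was at 231 and 216 CPM against 1157 and 1086 CPM, and the P1 mice with 1203 and 723 CPM were already above the E18.5 mice. Its log2 change was 2.30 ± 0.39 (SE; adjusted p 0.0267 in edgeR). Tspan7, a tetraspanin membrane protein, was at 355 and 338 CPM against 1833 and 1509 CPM, which is 2.24 ± 0.42 on the log2 scale (SE; adjusted p 0.0449 in edgeR).

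Wnt and BMP genes were among the risers of lower level. Wif1, a secreted inhibitor of Wnt ligands, was at 1.29 and 0 CPM at E18.5 and at 96.7 and 191 CPM at P7, where 40.0% and 44.1% of the cells had a read (edgeR adjusted p 0.0370). Nkd1, an intracellular inhibitor of Wnt signalling, was at 52.5 and 44.5 CPM against 252 and 275 CPM (edgeR adjusted p 0.0267), with little spread between the mice of an age. The secreted protein gene Wfdc1 was at 2.29 and 0.104 CPM against 149 and 246 CPM (edgeR adjusted p 0.0176), and the membrane protein gene Tmcc3 at 0.477 and 0.977 CPM against 72.5 and 41.1 CPM (edgeR adjusted p 0.0154). In these 4 genes both P7 mice were well above both E18.5 mice. Nkd1 was named after its values were seen, as were Ecm1 and Ddah1 elsewhere in the text. Other genes outside the rule for naming genes are also given, such as Smad6, Smad7, Tapbp, Psmb8 and Nlrc5.

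BMP signals reach EC through the receptors Acvrl1 and Bmpr2 with the co-receptor endoglin, and Smad and Id genes are their targets. Of 18 genes tested in the list of Tie, BMP and endoglin signalling, 1 rose (Bmp6), 0 fell and 7 were higher at an unadjusted p under 0.05, with 1 lower. The shares of all genes tested were 0.296% called higher, and 4.82% higher and 4.86% lower at that unadjusted p. Bmp6, a ligand (chromosome 13, 38345107 to 38500302), was at 7.82 and 0.932 CPM in the E18.5 mice and at 122 and 105 CPM in the P7 mice, which is 4.69 ± 0.87 on the log2 scale (SE; adjusted p 0.0439 in edgeR). Of its P7 reads 36.9% came from 1 cell. Of the receptors, Eng was at 364 and 234 CPM against 1058 and 1057 CPM and Bmpr2 at 132 and 88.7 CPM against 366 and 357 CPM. Neither overlapped between ages, and neither was called (edgeR adjusted p 0.110 and 0.120). The inhibitory Smads, Smad6 (13.1 and 19.8 against 72.1 and 128 CPM) and Smad7 (20.2 and 5.77 against 78.4 and 179.5 CPM), came close to the threshold (edgeR adjusted p 0.0564 and 0.0545). Of the Id targets, Id1 and Id2 did not overlap between ages and Id3 did, at 693 and 1464 CPM against 1163 and 1392 CPM. Tie1, an orphan receptor of EC, was at 823 and 586 CPM against 659 and 463 CPM, with overlap.

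Of the MHC class I and antigen presentation genes 3 rose. Class I molecules display peptides of a cell's own proteins to CD8+ T cells. Of 17 genes tested 3 rose (H2-K1, H2-Q6 and H2-Q7), 0 fell, 16 were higher in the fit, 14 had both P7 mice above both E18.5 mice and 11 were higher at an unadjusted p under 0.05. The median log2 change was 1.43. Over all 13176 genes, 0.296% were called higher, 47.9% were higher in the fit, 19.2% had both P7 mice above both E18.5 mice and 4.82% were higher at an unadjusted p under 0.05. The promoters of the 3 called genes and of H2-D1 hold a stretch that they share, shown here because 3 of these 4 genes rose. It runs from a fixed number of bases before the first marked element to just past the CCAAT box. The sequence is given 5′ to 3′ on the strand of the gene, from RefSeq's GRCm38.p6. Capitals mark the letters GGGATTCCC, the core of the NF-kappa-B element known as enhancer A, then TTTCACTTC, the interferon-stimulated response element, and last ATTGG, which is CCAAT on the other strand.
H2-K1, chr17:34000349-34000487, minus strand, 140 to 2 bases before the gene's start: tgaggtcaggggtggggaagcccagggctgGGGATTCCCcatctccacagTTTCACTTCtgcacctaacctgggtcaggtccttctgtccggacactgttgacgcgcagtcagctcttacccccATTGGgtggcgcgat
H2-D1, chr17:35262894-35263032, plus strand, 200 to 62 bases before the start: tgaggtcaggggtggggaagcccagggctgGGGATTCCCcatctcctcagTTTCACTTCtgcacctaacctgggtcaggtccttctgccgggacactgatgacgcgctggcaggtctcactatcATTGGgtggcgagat
H2-Q6, chr17:35424648-35424786, plus strand, 202 to 64 bases before the start: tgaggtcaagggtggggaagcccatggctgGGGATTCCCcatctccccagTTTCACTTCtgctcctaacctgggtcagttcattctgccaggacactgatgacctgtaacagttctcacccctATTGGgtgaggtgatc
H2-Q7, chr17:35438993-35439130, plus strand, 162 to 25 bases before the start: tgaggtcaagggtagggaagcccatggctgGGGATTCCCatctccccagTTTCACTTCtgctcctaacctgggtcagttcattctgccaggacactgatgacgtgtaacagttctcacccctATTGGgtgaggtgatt

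The 4 stretches were 84.3% to 97.1% identical in pairs, with H2-Q6 and H2-Q7 the most alike, and the first pair of elements stood 11 bases apart in 3 of them and 10 in H2-Q7. Searched on both strands of 32851 promoter windows, of which each spans 250 bases before to 50 after a start, GGGATTCCC was found in 0.353%, TTTCACTTC in 0.505% and CCAAT in 37.4%. Among the 15 genes of the class I list with a window, 4 held the first (the 4 printed), 6 the second and 12 the third. A match describes the letters only.

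H2-K1, a classical class I heavy chain (chromosome 17, 33996017 to 34000347), was at 54.9 and 53.5 CPM in FE18.5 and ME18.5 and at 900.5 and 918 CPM in FP7 and MP7. The mice of an age were nearly level, and the share of cells with a read went from 27.9% and 34.5% to 87.3% and 91.2%. Its log2 change was 4.04 ± 0.44 (SE; adjusted p 0.00155 in edgeR). The P1 mice were between the ages at 506 and 381 CPM, and the P7 mice in hyperoxia were at 201 and 307 CPM. H2-D1, the other classical heavy chain, was at 372 and 826 CPM against 2069.6 and 2303 CPM, without overlap but with no call (log2 change 1.82 ± 0.47 SE; edgeR adjusted p 0.170). B2m, the light chain of all class I molecules, was at 597 and 846 CPM against 1386 and 1547 CPM (edgeR adjusted p 0.492).

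The nonclassical H2-Q7 (chromosome 17, 35439155 to 35443773) was at 14.2 and 15.8 CPM against 205 and 218 CPM, which is 3.78 ± 0.48 on the log2 scale (SE; adjusted p 0.00358 in edgeR). H2-Q6 (chromosome 17, 35424850 to 35430055) had 1 read in the E18.5 mice together and stood at 190.2 and 96.7 CPM at P7 (edgeR adjusted p 0.00119), a pooled ratio of 29604 with a 95% counting interval of 5312 to 1169400. The interval covers the counting of reads only, not the spread between cells or mice. At P1 H2-Q6 was at 135 and 0.0815 CPM, so those 2 mice differed widely. These genes are near copies of one another, and how reads that match several copies were assigned is not given in the sources used here, so the split between H2-Q6 and H2-Q7 is uncertain. Of the peptide loading genes, Tapbp was at 96.2 and 120.1 CPM against 233 and 300.4 CPM (edgeR adjusted p 0.325), and of the immunoproteasome subunits Psmb8 (166 and 205 against 222 and 189 CPM) overlapped between ages. Nlrc5, the transactivator of class I genes, was at 0.0203 and 0 CPM against 16.6 and 3.91 CPM (edgeR adjusted p 0.363).

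**Figure D3:**
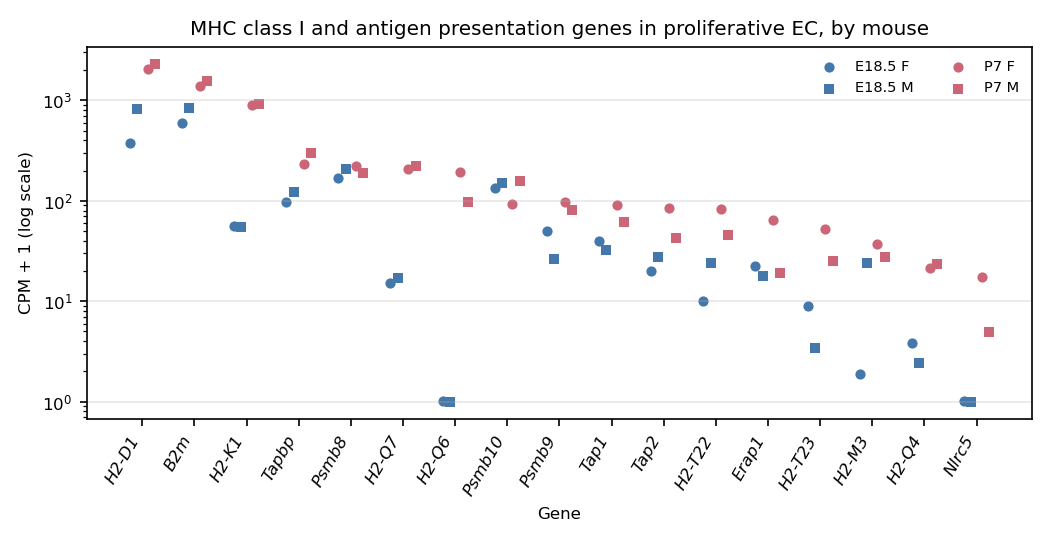
Level of the 17 MHC class I and antigen presentation genes in proliferative EC, as CPM + 1 on a log axis, with circles for females, squares for males, blue for E18.5 and red for P7. The called genes H2-K1, H2-Q7 and H2-Q6 stood far apart between the ages, whereas Psmb8, Psmb10 and Erap1 overlapped.

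Interferon-stimulated genes lay on both sides: of 21 tested, 1 rose, 0 fell, 12 were higher in the fit and 9 lower. For all genes tested these shares were 0.296%, 0.0835%, 47.9% and 52.0%, and the list had a median log2 change of 0.24. The riser was Gbp4, a guanylate-binding protein, at 3.73 and 1.79 CPM in the E18.5 mice and at 203 and 105 CPM in the P7 mice (log2 change 5.79 ± 0.68 SE; edgeR adjusted p 0.00231). Within the shared run of the males it was at 1.83 and 33.1 CPM. Ifitm3 (1078 and 987 against 555 and 737 CPM) and Ly6e (941 and 743 against 424 and 673 CPM) were lower in both P7 mice with no call, and Ly6a (159 and 217 against 312 and 753 CPM) was higher with no call. MHC class II genes were near the floor at both ages, with a sum over the list of 3.13 to 20.9 CPM per mouse.

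Members of the hypoxia response were among the genes that fell. When oxygen is low, HIF transcription factors escape the prolyl hydroxylases (Egln genes) and switch on targets that include Egln3 itself. Of 22 genes tested in the list 2 fell (Egln3 and Hif3a), 1 rose (Epas1), and 16 were lower in the fit. Of all genes tested 0.0835% fell, 0.296% rose and 52.0% were lower in the fit. The list had a median log2 change of -0.88. Egln3 (chromosome 12, 54178981 to 54203860) was at 97.8 and 37.4 CPM in FE18.5 and ME18.5, where 53.3% and 28.6% of cells had a read, and had 0 reads in both P7 mice. It was at least 1701-fold lower at P7 with 3 reads in the P7 mice together as the floor (edgeR adjusted p 0.0222), and both P1 mice also had 0 reads. That bound counts reads only and leaves out the spread between cells or mice. Hif3a, a HIF alpha subunit that can act as an inhibitor (chromosome 7, 17031507 to 17062427), was at 52.1 and 45.1 CPM against 0.0165 and 0 CPM, with 1 read at P7 in all (edgeR adjusted p 0.0167). At P1 it was at 0.337 and 0 CPM. Ankrd37, another HIF target, was at 402 and 186 CPM against 16.7 and 17.9 CPM, without overlap but with no call (log2 change -4.11 ± 1.02 SE; edgeR adjusted p 0.152). Hilpda, a lipid droplet protein and HIF target, overlapped at 165 and 116 CPM against 63.7 and 158 CPM.

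Of 19 glycolysis genes, many of them HIF targets, none was called, 17 were lower in the fit, 12 had both P7 mice below both E18.5 mice and 4 were lower at an unadjusted p under 0.05, with a median log2 change of -0.73. Over all 13176 genes 0.379% were called, 52.0% were lower in the fit, 21.3% were lower without overlap and 4.86% were lower at that unadjusted p. Aldolase Aldoa was at 432 and 695 CPM against 133 and 135 CPM (log2 change -2.11 ± 0.47 SE; edgeR adjusted p 0.107) and enolase Eno1 at 214 and 305 CPM against 86.7 and 56.5 CPM (edgeR adjusted p 0.124). Lactate dehydrogenase Ldha, at 575 and 1043 CPM against 562 and 685 CPM, overlapped.

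Imprinted and oncofetal growth genes gave 1 call between them. Of 12 imprinted genes tested, which are expressed from the allele of 1 parent, 1 fell (Grb10), 0 rose and 10 were lower in the fit. The list had a median log2 change of -0.91. Of all genes tested 0.0835% fell, 0.296% rose and 52.0% were lower in the fit. Grb10, an adaptor that restrains insulin and IGF receptors (chromosome 11, 11930508 to 12038683), was at 585 and 417 CPM against 100 and 133 CPM, which is -2.13 ± 0.41 on the log2 scale (SE; adjusted p 0.0472 in edgeR). Its call was lost in 10 of the 15 other settings. Mest was at 1809 and 1233 CPM against 1026 and 313 CPM (edgeR adjusted p 0.564). Of 10 oncofetal RNA-binding and let-7 target genes tested 0 were called and 9 were lower in the fit, and Igf2bp1, an mRNA-binding protein of fetal tissue, was at 51.2 and 47.1 CPM against 0.576 and 0.223 CPM (log2 change -6.85 ± 1.56 SE; edgeR adjusted p 0.111).

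Nrp2, Stab2, Clca3a1 and Prrg3 were also among the genes that fell. Nrp2, a co-receptor of semaphorins and VEGF-C known from veins and lymphatics (chromosome 1, 62703285 to 62818695), was at 95.2 and 77.6 CPM in the E18.5 mice and at 1.84 and 1.34 CPM in the P7 mice. The P1 mice were between, at 28 and 16.6 CPM, and the log2 change was -5.76 ± 0.90 (SE; adjusted p 0.0167 in edgeR). It was the 1 gene called among 19 of the VEGF and tip cell list, against 0.379% of all genes tested. The median log2 change of that list was 0.02. Plxnd1, a semaphorin receptor, was at 229 and 159.5 CPM against 50.5 and 38.2 CPM (edgeR adjusted p 0.0934), and Kdr, the main VEGF receptor, at 1050.2 and 645 CPM against 342 and 508 CPM (edgeR adjusted p 0.448). Stab2, a scavenger receptor of hyaluronan (chromosome 10, 86841198 to 87008025), was at 60.2 and 58.5 CPM against 0.0165 and 0 CPM (edgeR adjusted p 0.0370), and Clca3a1, a chloride channel accessory protein (chromosome 3, 144729677 to 144760977), at 91.4 and 59.0 CPM against 0.0165 and 0 CPM (edgeR adjusted p 0.00241). Each had 1 read at P7, and Clca3a1 was at 19.6 and 60.1 CPM at P1, overlapping E18.5. Prrg3, a transmembrane Gla protein, was at 202 and 119 CPM against 25.2 and 15.2 CPM (log2 change -3.00 ± 0.56 SE; edgeR adjusted p 0.0445).

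Matrix genes moved both ways. EC lay down the laminins, collagens and nidogens of their own basement membrane. Of 24 genes tested 2 fell (Col18a1 and Lamb1), 1 rose (Fn1) and 16 were lower in the fit, with a median log2 change of -0.65. Among all genes tested 0.0835% fell, 0.296% rose and 52.0% were lower in the fit. Col18a1, the collagen whose end fragment is endostatin (chromosome 10, 77052178 to 77166548), was at 158 and 139 CPM against 9.44 and 9.16 CPM, which is -4.02 ± 0.75 on the log2 scale (SE; adjusted p 0.0448 in edgeR). It was read in 59.0% and 47.6% of cells at E18.5 and in 7.27% and 5.88% at P7. Lamb1, the laminin beta 1 chain (chromosome 12, 31265234 to 31329644), was at 251 and 213 CPM against 15.5 and 47.0 CPM, which is -2.94 ± 0.56 on the log2 scale (SE; adjusted p 0.0472 in edgeR), and at P1 it was at 179 and 117 CPM. Sparcl1, a matricellular protein, was at 2813 and 1604 CPM against 457 and 361 CPM with no call (edgeR adjusted p 0.0713), and Col4a1, the main basement membrane collagen, overlapped at 1795 and 984 CPM against 1216 and 973 CPM. Fibronectin Fn1 was at 0.720 and 1.42 CPM against 63.1 and 34.0 CPM (edgeR adjusted p 0.0191), but 56.7% of its P7 reads came from 1 cell.

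A few called genes rested on single cells or on markers of another cell type. The adult beta globin gene Hbb-bs was at 3.53 and 146 CPM at E18.5 and at 0 at P7 (edgeR adjusted p 0.0370), and 96.3% of its reads came from 1 cell. Most of the higher group's reads also came from 1 cell for Ccdc184 (61.9%), Rcan1 (55.5%) and AW112010 (54.9%). Stmn2, a tubulin-binding protein best known from neurons, was the 1 call among 15 cytoskeletal genes tested, against 0.379% of all genes. It was at 46.9 and 26 CPM against 271 and 455 CPM (log2 change 3.29 ± 0.47 SE; edgeR adjusted p 0.00954). Reads of Stmn2 were found in 52.7% and 73.5% of the cells of FP7 and MP7. Over both P7 mice together 10.9% of its reads came from 1 cell, and the share within each mouse was not measured.

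**Figure D4:**
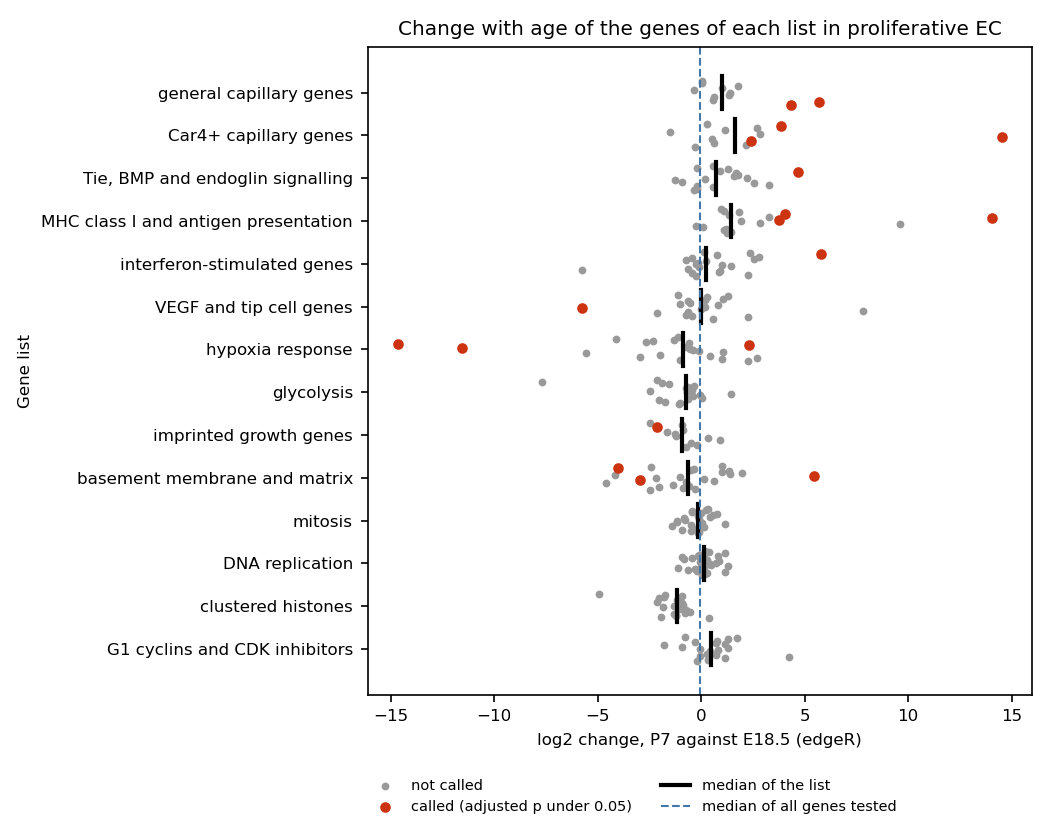
Log2 change from E18.5 to P7 in proliferative EC for each gene of 14 lists, with called genes in red, other tested genes in grey, the median of each list as a black bar and the median of all genes tested (-0.05) as a dashed line. Called genes lay to the right in both capillary lists and the MHC class I list, on both sides in the hypoxia and matrix lists, and were absent from the mitosis, DNA replication, histone, glycolysis and G1 lists. Of all genes tested 0.379% were called.

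Inhibitors and drivers of the G1 phase were tested too. Of 21 genes 0 were called, 14 were higher in the fit and 4 higher and 1 lower at an unadjusted p under 0.05. The shares of all genes tested were 0.379% called, 47.9% higher in the fit, and 4.82% higher and 4.86% lower at that unadjusted p. Cdkn1a, the p21 inhibitor and a p53 target, was at 391 and 287 CPM against 517 and 1052 CPM (edgeR adjusted p 0.410), and Cdkn1b, the p27 inhibitor, at 89.7 and 141 CPM against 24.1 and 44.0 CPM (edgeR adjusted p 0.297). Of the D cyclins, Ccnd1 was at 445 and 612 CPM against 290.1 and 334 CPM and Ccnd2 at 48.9 and 32.6 CPM against 85.1 and 191 CPM. These 4 genes did not overlap between ages and none passed the test. Of the 21 genes, 8 had both P7 mice above both E18.5 mice and 3 had both below. Over all genes tested these shares were 19.2% and 21.3%.

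To ask whether these changes were those of cycling EC, the age difference was set against that of noncycling EC of the same mice. The noncycling cells were those labelled Nonproliferative embryonic EC at E18.5 (134 and 168 cells) and Early Car4- capillaries at P7 (162 and 114 cells), so their label changed with age. The test of the difference between the age changes, with mouse as a term, called 0 of 14785 genes (edgeR adjusted p under 0.05; percent called 0.0), with 526 at an unadjusted p under 0.05, whereas DESeq2 called 98. A change that does not pass this test is not shown to be the same in both classes. In noncycling cells Hpgd was at 25.4 and 17.5 CPM at E18.5 and at 3067 and 2969.7 CPM at P7, with a log2 change of 7.17 beside 6.84 in proliferative EC. Tmem100 changed by 4.25 there beside 4.36, Lamb1 by -2.95 beside -2.94 and Grb10 by -2.00 beside -2.13. H2-K1 was at 86.5 and 139.9 CPM against 998 and 871 CPM, a change of 3.06 beside 4.04 (difference 0.97; unadjusted edgeR p 0.0344). H2-Q6, with 1 read in proliferative EC at E18.5, was at 4.06 and 0.0511 CPM in noncycling cells at E18.5 and at 74.7 and 61.8 CPM at P7. Car4, already at 132 and 48.5 CPM in noncycling cells at E18.5, changed by 1.68 there beside 3.84 (difference 1.74; unadjusted edgeR p 0.00731). Ddah1, an enzyme that clears inhibitors of nitric oxide synthase, changed by 1.71 beside 2.64 (difference 0.93; unadjusted edgeR p 0.00633).

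**Figure D5:**
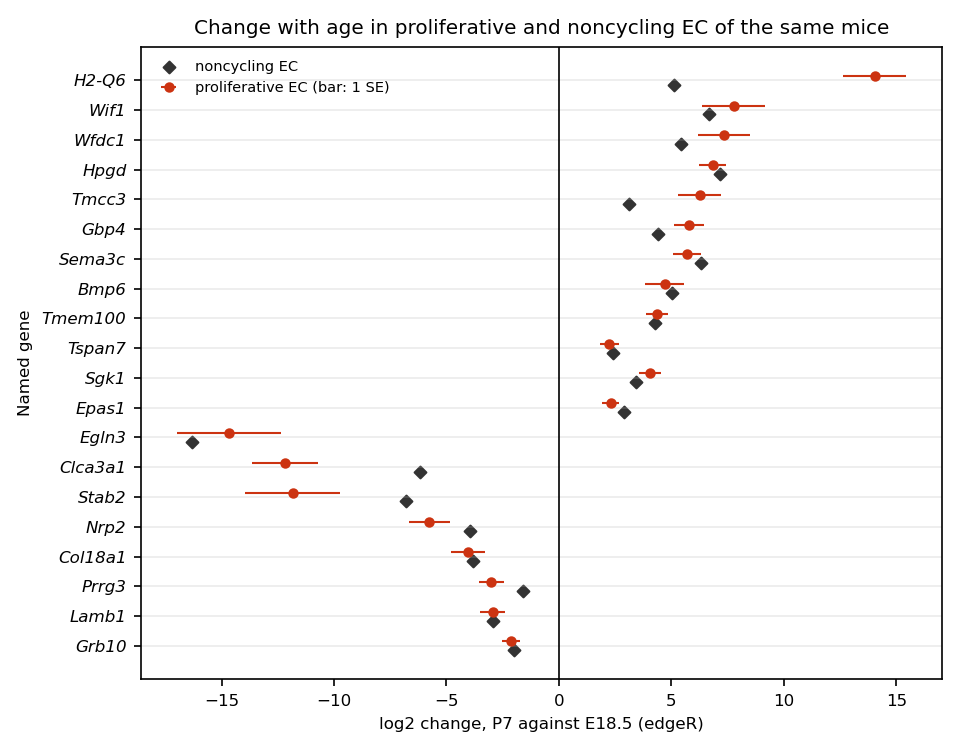
Log2 change from E18.5 to P7 of the 20 genes named by rule, in proliferative EC (red circles, bar of 1 SE) and in noncycling EC of the same mice (black diamonds). The diamond lay outside the bar for H2-Q6, Wfdc1, Tmcc3, Gbp4, Sgk1, Epas1, Clca3a1, Stab2, Nrp2 and Prrg3. For the other genes, Tmem100, Lamb1, Grb10 and Col18a1 among them, the diamond lay within the bar. H2-Q6, Clca3a1 and Stab2 had 1 read at one of the ages in proliferative EC, and Egln3 had 0 reads at P7. The size of the fitted change of these genes therefore depends on the prior count.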

How the data were processed

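Each deposited sample was 1 cell, and the authors deposited 1 table of whole read counts per gene and cell, made from plate-based libraries cut with Tn5 transposase, per the labels, without molecular identifiers. Per the submitters' processing notes STAR 2.5.2b and HTSeq 0.10 were used and the build was GRCh38, a human build that does not suit mouse cells, so the build behind the counts is not settled. The table holds 18072 symbols, none of them mitochondrial, ribosomal protein or predicted genes. The authors' subtype labels were used as they stand, and no doublet caller was run.

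Counts were summed per mouse over proliferative EC and tested with edgeR 4.0.16 in R 4.3.3 (TMM, filterByExpr, quasi-likelihood F test, Benjamini-Hochberg adjustment over all genes tested). DESeq2 1.42.0 and limma 3.58.1, the latter on log2(mean CPM per cell + 1), were alternatives. The age test used 6 mice, since the P1 mice had 13 and 9 cells. The fits were run on simulated counts as a check of the code. For the test against noncycling EC the simulated spread was a fixed value not estimated from these data. It therefore does not show which differences that test could detect here. CPM are of the summed counts. Single values were compared by exact two-sided permutation tests over mice, and shares carry 95% Clopper-Pearson intervals, which cover counting error only.

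Genes were named by rule from the called genes whose mice do not overlap, with a mean of at least 50 CPM and reads in at least 25% of the cells of both mice of the higher group: the 8 with the largest change and the 5 with the highest level per direction, with the called members and the 3 highest members of each list. Some genes in the text, such as Smad6, Smad7, Tapbp, Psmb8 and Nlrc5, fall outside this rule. Members, mice in the fit and the 39 gene lists were chosen with earlier results of these data known. The other settings tried were DESeq2, limma, RLE factors, no filter, other sets of mice, sex as a block, CD31-gate cells, cells thinned to 50000 reads, and each of the 6 mice left out. Gene positions are those of GENCODE M21 on GRCm38, matched by symbol for 17999 of 18072 symbols. Promoters are RefSeq's on GRCm38.p6. Proteins were not used here.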

Additional observations from a re-analysis of the deposited data

How the results depend on the processing

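The direction of all 50 called genes held in every setting, but it was nearly fixed in advance because their mice did not overlap. The count of genes called between P7 and E18.5 was 50. It was 429 with DESeq2, 229 with no filter on low counts, 127 with cells thinned to 50000 reads and 6 with the P1 mice added, the cause of which was not tested. Leaving out 1 mouse gave 27 to 162 genes, with 27 without FE18.5, 38 without ME18.5, 78 without FP7, 83 without MP7, and 153 and 162 without the female and male hyperoxia mouse. It stayed within 1.5 times with RLE factors (49), the 4 compared mice alone (48), CD31-gate cells alone (46) and limma (44), and at 36 in an alternative chosen after seeing the data, without cells holding markers of other types. With sex as a replicate block 43 genes were called, 38 of them shared. Mice of the same sex share only that label, and their deviations from the group means correlated across 13176 genes at 0.0318 to 0.0521, so the block was not read as pairing. The test against noncycling EC called 98 genes with DESeq2 and 0 in its other settings. The shares and the list sums kept their direction in the settings tried, except the DNA replication sum, whose P7 minus E18.5 difference of 738 CPM turned to -113 CPM without FP7. With 2 mice a group, and 89 cells at P7, small changes were not detectable.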

Other observations

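Further gene groups of vessel function were measured in the same cycling cells, none of them with a call, against 0.379% of all genes tested. Of 13 lipid and water handling genes tested 10 were higher at P7 in the fit and 3 were higher at an unadjusted p under 0.05. For all genes tested these shares were 47.9% and 4.82%. The water channel Aqp1 was at 131 and 48.3 CPM in FE18.5 and ME18.5 and at 477 and 335 CPM in FP7 and MP7, and the fatty acid transporter Cd36 at 309 and 183 CPM against 785 and 555 CPM, neither overlapping (edgeR adjusted p 0.118 and 0.286). Of 29 endothelial transcription factors tested 18 were higher, and Foxf1, needed for lung capillaries, was at 373 and 299 CPM against 970.5 and 1083 CPM (edgeR adjusted p 0.152). Calcrl, the receptor of adrenomedullin, was at 499 and 600.0 CPM against 1159 and 1983 CPM (edgeR adjusted p 0.255). Arterial genes were higher in 8 of 9 tested, with the connexin Gja4 at 60.5 and 117 CPM against 373 and 385 CPM (edgeR adjusted p 0.340), while the arterial Gja5 stayed at 0.0329 to 5.41 CPM in all 4 mice. Emcn, a sialomucin of capillary and venous EC, went the other way, at 1584 and 2001 CPM against 497 and 801 CPM (edgeR adjusted p 0.226).

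Of 22 nuclear oxidative phosphorylation genes 16 were lower at P7 in the fit and 7 were lower at an unadjusted p under 0.05, with a median log2 change of -0.47. Across all genes tested 52.0% were lower in the fit and 47.9% higher, and at that unadjusted p 4.86% and 4.82%. Together with the lower glycolysis genes, both lists leaned to E18.5. Of 9 heat shock genes tested 6 were lower, and the chaperone Hsp90ab1 was at 3225 and 2924 CPM against 1337 and 1384 CPM (edgeR adjusted p 0.334). Of 14 p53 targets 11 were higher and 5 were higher at an unadjusted p under 0.05, with Phlda3 at 17.1 and 34.6 CPM against 61.8 and 179 CPM (edgeR adjusted p 0.166). Igf1, a growth factor gene, was at 54.8 and 42.2 CPM at E18.5 and at 0.972 and 0.447 CPM at P7 (edgeR adjusted p 0.229), with 0 reads in both P1 mice. Igfbp5 stood at 93.4 CPM in MP7 and at 0.0203 to 0.329 CPM in the other 3 mice, and within the male cells of the shared run it was at 0.151 and 0.126 CPM, so its level in MP7 came from the 1 cell of that mouse outside the run.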
